A study of Mus musculus with 4 samples.

Results

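Interferon response genes are the genes that cells switch on when interferon, or viral nucleic acid inside the cell, is sensed. A list of 35 such genes was matched by symbol to an expression table of mouse small intestinal organoids, and all 35 were found among its 22632 genes. The table holds 4 RNA-seq libraries from 4 groups, 1 library in each, made 24 hours after whole crypts were seeded in Matrigel. Yap+/- organoids (Yap+/fl;VillinCre) carried 1 deleted copy of Yap1, the gene of the Hippo pathway co-activator YAP, and Yap-/- organoids (Yapfl/fl;VillinCre) had both copies deleted. In both, the Villin promoter drives Cre in the intestinal epithelium, so the reference of this pair also carries Cre and a deletion. YapTg organoids carried a doxycycline-inducible wild-type Yap transgene under a reverse tetracycline transactivator that depends on Cre, and were grown without or with 1.5 mg/ml doxycycline from seeding. A library with the drug and without the transgene was not analysed here, so drug and YAP cannot be told apart. Age, strain and the number of animals behind a library are not given in the labels. With 1 library in each group no difference has a replicate check, no test was made, and the 95% intervals on ratios cover counting error only.

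Interferons are secreted proteins that bind receptors on the cell surface and signal through JAK kinases to STAT transcription factors. A complex that holds STAT2 and IRF9 binds the interferon-stimulated response element (ISRE) and switches on antiviral genes, whereas the gamma-activated site (GAS) is the element typical of the response to interferon gamma. Sensors of foreign RNA, transcription factors, antiviral effectors and parts of the antigen processing machinery belong to the response, and in the gut epithelium it is known for defence against enteric viruses.

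The library totals behind the values ranged from 44934170 to 75269003 reads, recovered from the values themselves. Levels are in RPKM, reads scaled to gene length and library total, and can therefore be compared between genes. Wherever 4 values follow each other, they stand for Yap+/-, Yap-/-, YapTg without and YapTg with doxycycline. Yap1 was at 16.7 RPKM in Yap+/- and 3.35 in Yap-/- organoids, and at 25.1 without and 1039 with doxycycline, which fits the labels. Of 10 defining markers of the intestinal epithelium, including Epcam and Vil1, all 10 exceeded 1 RPKM in every library. With doxycycline 2 were higher and 2 lower by 2-fold or more, next to 11.6% of all genes in either direction. Their log2 ratios of RPKM plus 1 ran from -4.18 to 2.37 in that pair, so epithelial markers also changed there.

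Induced YapTg organoids had a higher level of most interferon response genes, with the widest RPKM ratios for Rsad2, Usp18, Ifit3 and Isg15. With loss of Yap the RPKM ratio reached 2 for 3 members, Oas2, Rtp4 and Psmb8, and none passed the rule given next. Oas2 and Rtp4 lay under 1 RPKM in both libraries of that pair. Of the 17378 genes above 0 in any library, 593 were higher by such a ratio with loss of Yap and 700 lower, against 0 members lower. The induced library was the highest of the 4 for 28 of 35 members, and for 20 members it was at 2 times the level of each other library or more. These 2 counts were not made over all genes. With over without doxycycline, the RPKM ratio reached 2 for 20 members and for 1476 of the 17378 genes above 0. In both pairs a gene at 0 in the library divided by has no ratio and was not counted as reaching 2. The counts over all genes are therefore too low beside those of the members, of which 0 were at 0. The 7 members whose highest library was not the induced one were Irf1, Ifitm3, Mx1, Ifi35, Dtx3l, Psmb8 and Psmb9. Summed over the members, levels were 157 RPKM in Yap+/- and 194 in Yap-/- organoids, and 188 without and 373 with doxycycline. The median member was at 2.11, 2.99, 2.64 and 7.10 RPKM in the same order. Because whole organoids were sequenced, more cells with a transcript and more transcript in each cell cannot be told apart.

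To be called, a gene needed a 2-fold difference on the log2 scale of RPKM plus 1 and a level of 1 RPKM in at least 1 library of the pair. With doxycycline 16 members were called higher and 1 lower. Of the 11108 genes at that floor 5.85% were higher and 5.8% lower, 11.6% in all. The median log2 ratio of the 33 members at the floor was 0.99, and that of all genes was -0.04. Of these 33 members, 11 reached 1 RPKM in the induced library only and so could only differ upward. Over all 35 members, with no floor, the median was 0.95. When the floor was set by the mean of the Yap+/- and Yap-/- libraries, which take no part in the ratio, 21 members remained, of which 7 were higher and 1 lower, with a median of 0.74. Under that floor 4.25% of all genes were higher and 6.06% lower, with a median of -0.06. By counting error alone, the interval excluded 1 upward for 28 of the 33 members and downward for 4, next to 36.5% and 45% of all genes.

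For Yap-/- over Yap+/-, 0 members were higher and 0 lower by this rule, where 0.336% and 0.57% of 10710 genes were, 0.906% in all. The median log2 ratio of the 22 members at the floor was 0.16, against 0.05 for all genes, and 20 of the 22 had a ratio above 0, as did 7017 of the 10710 genes. A counting interval that excludes 1 was found upward for 15 of the 22 members and downward for 2, next to 38.7% and 15.8% of all genes. At these depths small ratios clear counting error, which says nothing of the spread between cultures.

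**Figure D1:**
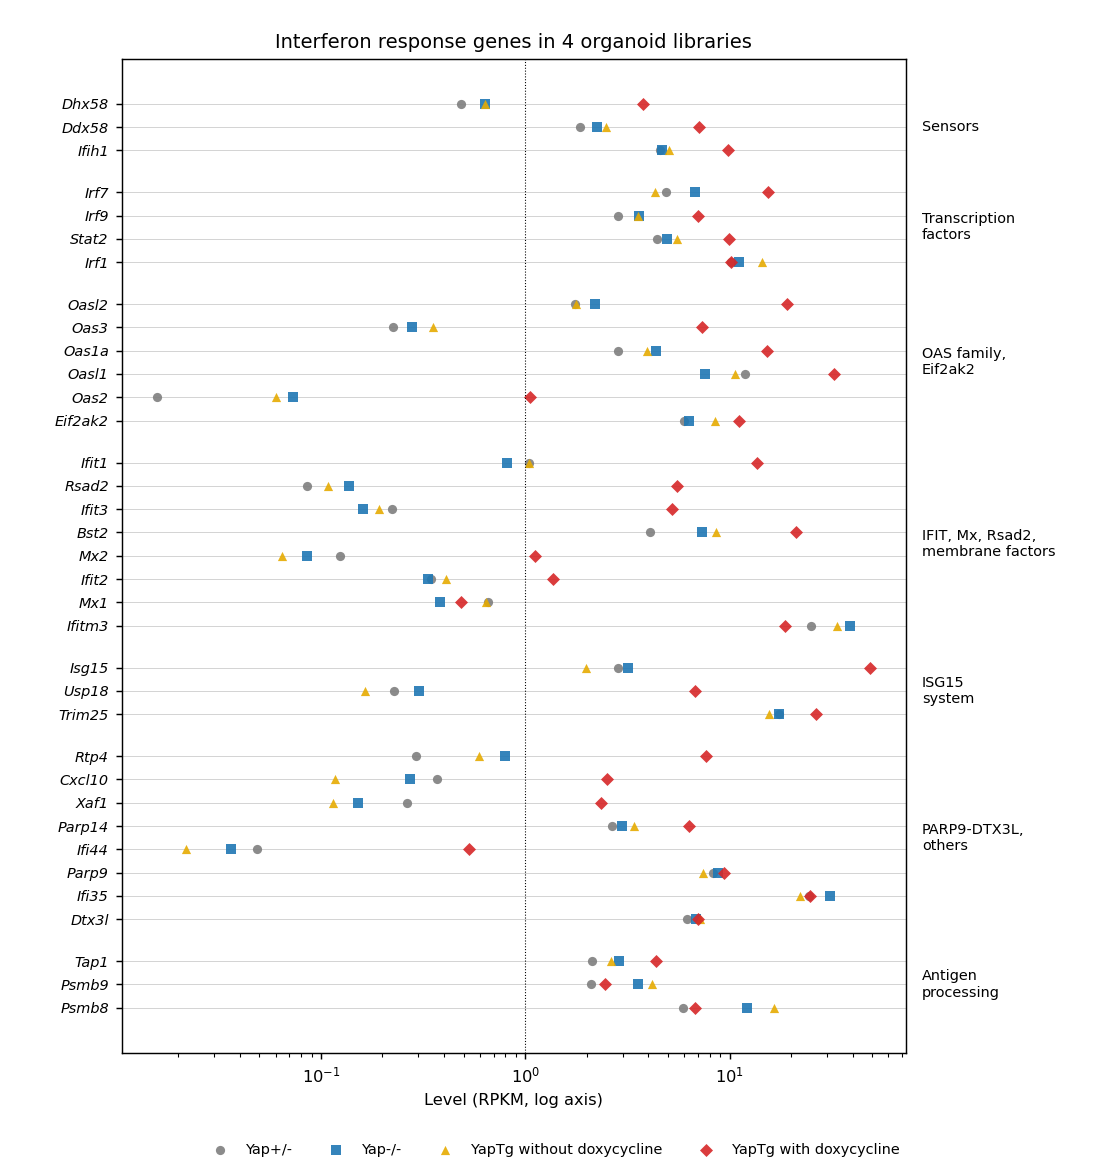
Level of each of the 35 interferon response genes in RPKM (log axis) in the 4 organoid libraries, 1 point per library, grouped by role; the dotted line marks 1 RPKM. The induced library (diamonds) is the highest for 28 genes, and Isg15 reaches 49.0 RPKM.

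**Figure D2:**
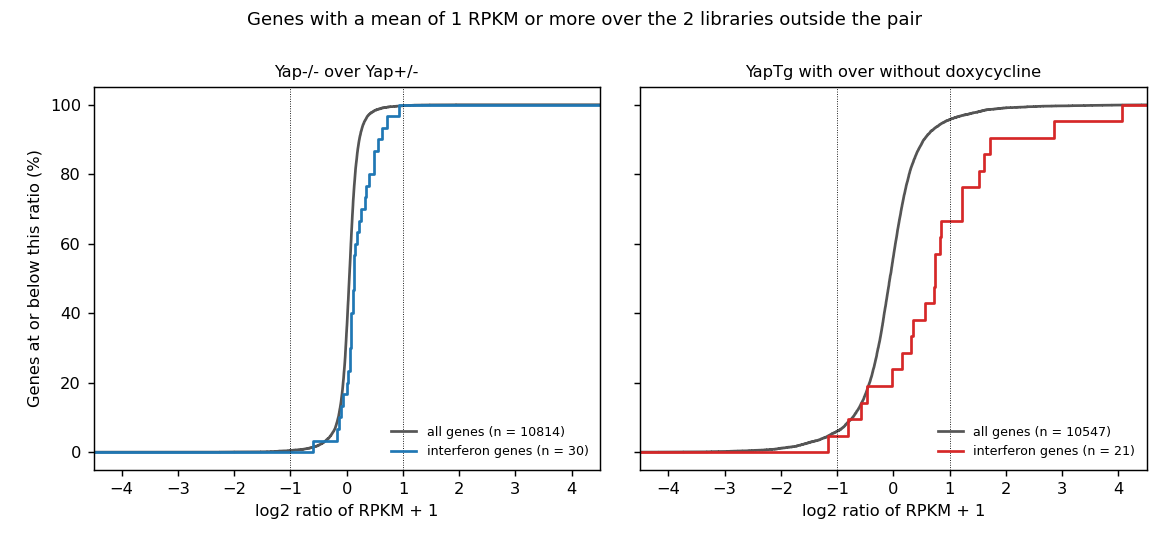
Cumulative share of genes (%) by log2 ratio of RPKM + 1, for all genes and for the interferon genes, with the floor of 1 RPKM set by the mean of the 2 libraries outside each pair; dotted lines mark 2-fold. With doxycycline 7 of 21 interferon genes lie beyond 2-fold upward, next to 4.25% of all genes, and 1 of 21 downward, next to 6.06%.

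The promoters of the members are shown because the ISRE is the element through which this response is switched on. RefSeq promoters on GRCm38.p6, 250 bases before to 50 after the start site, were at hand for 27 of the 35 members. They were searched on both strands for the ISRE core, GAAA followed by any 2 bases and GAAA again, and for the GAS consensus TTCNNNGAA, which reads the same on both strands. An ISRE match was found in 13 of the 27 members (48.1%) and in 3.99% of the 27025 genes with an entry. A GAS match was found in 8 of the 27 (29.6%) and in 9.55% of those genes. In 2 members, Bst2 and Ifitm3, a GAS match overlaps an ISRE match. An ISRE match lay wholly upstream of the start in 9 members. The next lines give a stretch from each of these 9, whose ratios with doxycycline ran from 1.79 for Stat2 to 51.0 for Rsad2. They read 5′ to 3′ on the gene's strand, with ISRE matches in capitals.
Isg15, chr4:156200855-156200954, minus strand: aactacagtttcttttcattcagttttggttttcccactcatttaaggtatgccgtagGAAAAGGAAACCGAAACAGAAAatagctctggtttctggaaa
Rsad2, chr12:26456543-26456642, minus strand: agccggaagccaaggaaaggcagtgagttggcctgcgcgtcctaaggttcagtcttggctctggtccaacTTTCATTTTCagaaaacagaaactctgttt
Ifit3, chr19:34583337-34583436, plus strand: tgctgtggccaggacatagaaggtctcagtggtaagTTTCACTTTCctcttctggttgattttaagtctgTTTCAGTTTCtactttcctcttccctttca
Ifit1, chr19:34640734-34640833, plus strand: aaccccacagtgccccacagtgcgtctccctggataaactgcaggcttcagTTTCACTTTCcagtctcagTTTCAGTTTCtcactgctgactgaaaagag
Oas3, chr5:120777705-120777804, minus strand: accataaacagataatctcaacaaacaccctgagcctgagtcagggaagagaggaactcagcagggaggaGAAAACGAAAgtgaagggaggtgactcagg
Bst2, chr8:71537567-71537666, minus strand: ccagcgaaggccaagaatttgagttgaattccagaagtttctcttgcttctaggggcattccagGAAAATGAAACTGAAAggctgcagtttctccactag
Cxcl10, chr5:92349073-92349139, minus strand: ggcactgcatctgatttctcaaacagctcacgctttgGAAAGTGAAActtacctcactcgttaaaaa
Oas1a, chr5:120907526-120907625, minus strand: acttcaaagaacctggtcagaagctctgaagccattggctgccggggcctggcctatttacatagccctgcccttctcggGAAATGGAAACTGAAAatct
Stat2, chr10:128270248-128270305, plus strand: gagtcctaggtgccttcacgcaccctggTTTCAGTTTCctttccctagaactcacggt
Isg15 holds 3 overlapping ISRE matches from position -78 to -57 counted from the start site, Ifit1 and Ifit3 hold 2 separate ones each, and Bst2 and Oas1a hold 2 that overlap. A GAS match without an ISRE match was found in 4 members, Psmb8 (ratio with doxycycline 0.411), Irf1 (0.705), Ifi35 (1.12) and Ifit2 (3.37), which lie on both sides of 1. Irf1 and Psmb8, picked after their values were seen, follow with the GAS match in capitals.
Irf1, chr11:53769853-53769952, plus strand: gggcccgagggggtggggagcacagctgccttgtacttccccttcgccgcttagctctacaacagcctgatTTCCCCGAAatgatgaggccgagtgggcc
Psmb8, chr17:34198027-34198126, plus strand: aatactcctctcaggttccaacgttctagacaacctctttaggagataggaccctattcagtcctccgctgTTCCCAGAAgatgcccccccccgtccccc
The 13 members with an ISRE match had a median ratio of 3.86 with doxycycline and the 14 without one a median of 1.84, and the ranges overlap widely, from 0.56 to 51.0 and from 0.411 to 24.4. In the Yap-/- pair the medians were 1.12 and 1.18. A match describes these letters only, and no match says only that they are not in this window. The 8 members without a promoter entry were Dhx58, Mx1, Mx2, Oas2, Parp9, Parp14, Rtp4 and Usp18, with ratios up to 41.5 for Usp18.

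**Figure D3:**
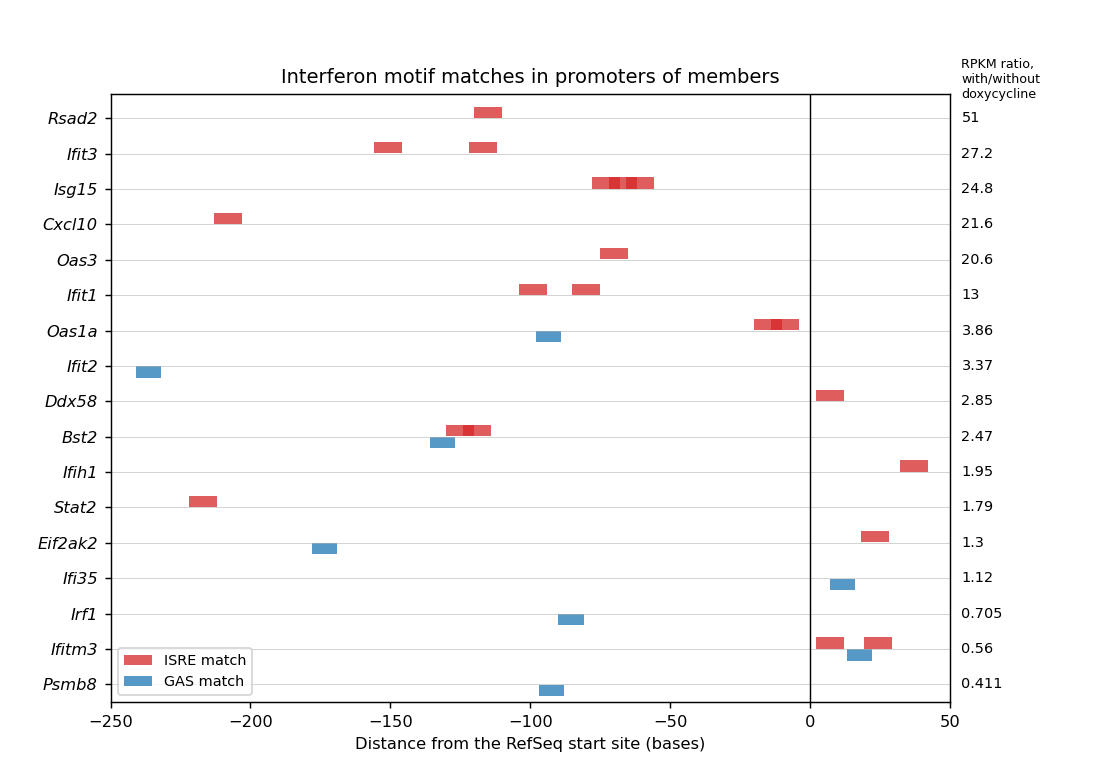
Position of ISRE (red) and GAS (blue) matches in the promoters of the 17 members that hold either, in bases from the RefSeq start site, sorted by the RPKM ratio with over without doxycycline printed at the right. Among these 17, the 6 with the highest ratios hold an upstream ISRE match, as does Oas1a (3.86), and Ifitm3, at 0.56, holds 2 just past the start. Members not shown include Ifi44 (24.4) and Xaf1 (20.7), with neither match in this window, and Usp18 (41.5), with no promoter entry.

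Of the sensors of viral RNA, 2 of 3 were higher in induced organoids by the rule, next to 5.85% of all genes. Dhx58, which encodes LGP2, a regulator of the other sensors, was at 0.483 RPKM in Yap+/- and 0.633 in Yap-/- organoids, and at 0.632 without and 3.79 with doxycycline. Ddx58, the gene of the RNA sensor RIG-I, was at 1.86, 2.24, 2.49 and 7.10 RPKM, and Ifih1, the gene of the sensor MDA5, at 4.59, 4.68, 5.04 and 9.86 RPKM. In each case the 3 libraries without induction lay close together and the induced library stood above them. The ratios with doxycycline were 6.0 (95% counting interval 4.87 to 7.46) for Dhx58, 2.85 (2.64 to 3.08) for Ddx58 and 1.95 (1.83 to 2.08) for Ifih1, which missed the rule. Yap-/- over Yap+/- gave ratios of 1.31, 1.20 and 1.02, the last with an interval of 0.95 to 1.09.

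The transcription factors were divided. Irf7, the factor that amplifies interferon production, was at 4.90 RPKM in Yap+/- and 6.81 in Yap-/- organoids, and at 4.34 without and 15.4 with doxycycline, a ratio of 3.54 with doxycycline (3.24 to 3.87). Irf9 and Stat2 encode parts of the complex that binds the ISRE. Irf9 was at 2.86, 3.60, 3.56 and 7.05 RPKM and Stat2 at 4.40, 4.93, 5.54 and 9.92 RPKM, ratios of 1.98 and 1.79 with doxycycline that stay under the rule. Irf1, a factor induced mainly by interferon gamma through GAS, went the other way, at 10.2, 11.2, 14.5 and 10.2 RPKM. It was 1.42-fold lower with doxycycline (1.35 to 1.50), and its highest library was the uninduced one. All 4 factors were slightly above their Yap+/- level in Yap-/- organoids, by ratios from 1.09 for Irf1 to 1.39 for Irf7.

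Oligoadenylate synthetases detect double-stranded RNA and activate the ribonuclease RNase L. Oas3 was at 0.225 RPKM in Yap+/- and 0.280 in Yap-/- organoids, and at 0.353 without and 7.29 with doxycycline, a ratio of 20.6 with doxycycline (16.6 to 26). Oas2 was nearly silent at 0.0158, 0.0730, 0.0600 and 1.05 RPKM, which is 4, 22, 12 and 353 reads. Its ratio of 17.6 has a wide interval of 9.93 to 34.3, and at this level the pseudocount kept it under the rule (log2 ratio 0.95). Oas1a was at 2.85, 4.37, 3.97 and 15.3 RPKM, 3.86-fold higher with doxycycline. Its close copy Oas1g, added after values were seen, was at 0.736, 1.21, 1.39 and 4.54 RPKM, and reads of such copies can be exchanged between them.

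The synthetase-like genes behaved alike with doxycycline and unlike with loss of Yap. Oasl2, whose product carries ubiquitin-like domains, was at 1.75 RPKM in Yap+/- and 2.20 in Yap-/- organoids, and at 1.78 without and 19.1 with doxycycline. Oasl1, a translational regulator of Irf7, was at 11.9, 7.56, 10.7 and 32.6 RPKM. With doxycycline both were higher, 10.7-fold and 3.04-fold. In Yap-/- organoids Oasl2 was at 1.26 times its Yap+/- level, and Oasl1 was 1.58-fold lower (1.47 to 1.70), the lowest log2 ratio of any member in that pair (-0.60). Eif2ak2, the gene of the kinase PKR that halts translation, was at 6.0, 6.35, 8.53 and 11.1 RPKM, with a ratio of 1.30 after induction.

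The widest ratios, those of Rsad2, Usp18 and Ifit3, belonged to effectors that were almost silent without induction. Isg15, next in order, was at 1.97 RPKM without doxycycline. Mx1, at 0.641 RPKM there, had a ratio of 0.756. Rsad2, which encodes viperin, an enzyme that makes a chain-terminating nucleotide, was at 0.0852 RPKM in Yap+/- and 0.136 in Yap-/- organoids, and at 0.108 without and 5.50 with doxycycline. These values rest on 21, 40, 21 and 1793 reads, and the ratio with doxycycline was 51.0 (33.2 to 82.5). The IFIT genes encode proteins that bind viral RNA and block its translation. Ifit3 was at 0.221, 0.161, 0.191 and 5.20 RPKM (ratio 27.2, 16.4 to 48.8) and Ifit1 at 1.04, 0.817, 1.05 and 13.6 RPKM (ratio 13.0, 10.8 to 15.7). Ifit2 was at 0.344, 0.335, 0.408 and 1.37 RPKM, a ratio of 3.37 that did not pass the rule. The 3 IFIT genes were thus at one low level in the 3 other libraries, with the induced library apart. In Yap-/- organoids all 3 had ratios below 1, from 0.726 to 0.972, and only the interval of Ifit1 (0.624 to 0.992) excludes 1.

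Close relatives of the IFIT genes, added after values were seen, give context, since their reads can be exchanged with those of the members. I830012O16Rik, which RefSeq lists as Ifit3b, was at 0.156, 0.0588, 0.0985 and 2.39 RPKM. Gm14446 was at 2.68, 0.816, 2.16 and 7.35 RPKM, and 2010002M12Rik at 7.69, 2.78, 2.88 and 10.8 RPKM. All 3 were above their uninduced level with doxycycline, and Gm14446 and 2010002M12Rik were past 2-fold lower in Yap-/- than in Yap+/- organoids, unlike Ifit1.

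The 2 Mx genes, GTPases that trap viral nucleocapsids, parted. Mx2 was at 0.124 RPKM in Yap+/- and 0.0855 in Yap-/- organoids, and at 0.0645 without and 1.12 with doxycycline, a ratio of 17.4 (8.29 to 43.8) on 7 and 204 reads. Mx1 was at 0.660, 0.381, 0.641 and 0.485 RPKM, 1.32-fold lower with doxycycline (1.01 to 1.72). Mx1 is disrupted in many laboratory mouse strains, and the strain here is not given. Among membrane-bound restriction factors, Bst2, the gene of tetherin, which holds budding virions at the cell surface, was at 4.07, 7.35, 8.56 and 21.2 RPKM. It was 2.47-fold higher with doxycycline and 1.8-fold higher in Yap-/- than in Yap+/- organoids. Ifitm3, whose product blocks virus fusion in endosomes, was at 25.0, 39.1, 33.5 and 18.7 RPKM. It was 1.79-fold lower with doxycycline (1.63 to 1.96) and was the only member with its lowest level in the induced library.

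The ISG15 system, a ubiquitin-like conjugation pathway, held the highest single value. Isg15, the modifier, was at 2.83 RPKM in Yap+/- and 3.18 in Yap-/- organoids, and at 1.97 without and 49.0 with doxycycline, which made it the member with the highest level in the induced library. Usp18, which removes ISG15 from proteins and restrains the interferon receptor, was at 0.228, 0.30, 0.163 and 6.78 RPKM. Their ratios with doxycycline were 24.8 and 41.5, the latter with an interval of 24.1 to 78.2. Trim25, a ubiquitin ligase that acts on RIG-I, was already abundant at 17.5, 17.6, 15.6 and 26.4 RPKM, a ratio of 1.70 below the rule. In Yap-/- over Yap+/- the intervals of all 3 included 1. Uba7, the activating enzyme for ISG15 and not a member, was at 3.31, 2.87, 4.34 and 7.45 RPKM and was named after its values were seen.

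The remaining effectors ranged from nearly silent genes to genes expressed in every library. Cxcl10, a chemokine that attracts T cells, was at 0.370 RPKM in Yap+/- and 0.272 in Yap-/- organoids, and at 0.117 without and 2.53 with doxycycline (ratio 21.6, 10.8 to 50.4, on 8 and 289 reads). Xaf1, a pro-apoptotic gene, was at 0.262, 0.151, 0.114 and 2.36 RPKM, and Rtp4, a receptor transporter gene, at 0.290, 0.798, 0.594 and 7.66 RPKM. Ifi44, a gene of the antiviral response, stayed under 1 RPKM everywhere at 0.0488, 0.0362, 0.0218 and 0.532 RPKM. The ratios of Xaf1, Rtp4 and Ifi44 with doxycycline were 20.7, 12.9 and 24.4, the last on 6 and 245 reads. Rtp4 also had the widest ratio in the Yap-/- pair after Oas2, 2.75 (1.75 to 4.44), although both libraries lay below the floor. By contrast Parp9 and Dtx3l, which encode a partner pair of an ADP-ribosyltransferase-like protein and a ubiquitin ligase, were level across libraries. Parp9 ranged from 7.41 to 9.41 RPKM and Dtx3l from 6.21 to 7.19 RPKM. Parp14, a related ADP-ribosyltransferase gene, was at 2.66, 2.99, 3.41 and 6.36 RPKM, a ratio of 1.87 with doxycycline. Ifi35 was at 24.4, 31.2, 22.1 and 24.6 RPKM, a ratio of 1.12.

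**Figure D4:**
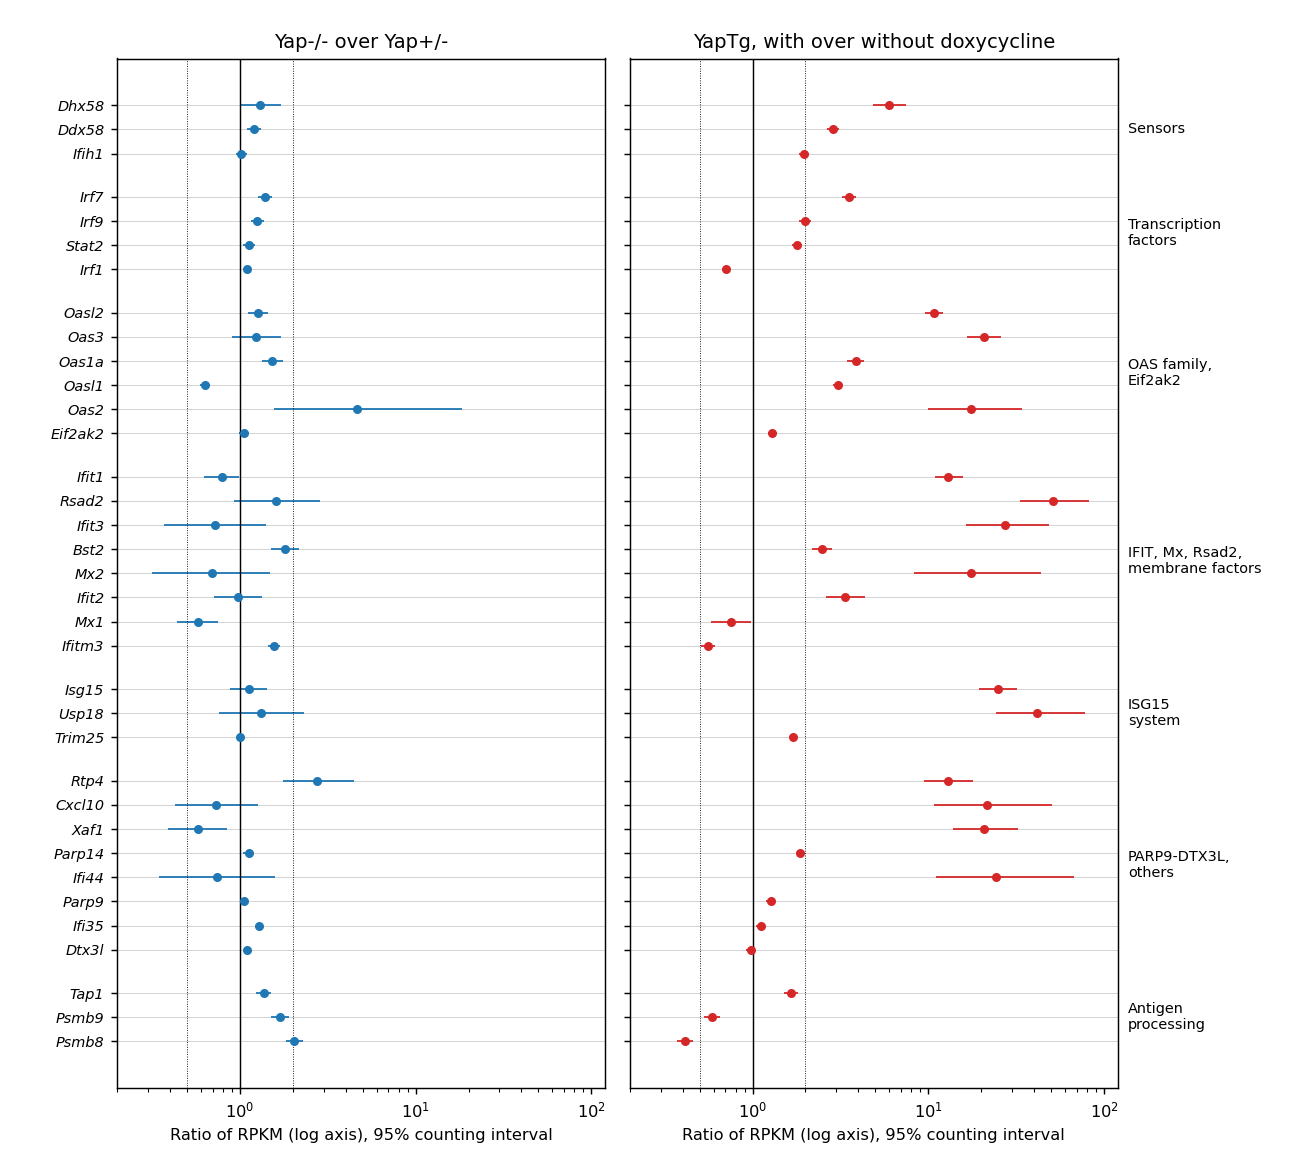
Ratio of RPKM for each member in the 2 pairs (log axis) with 95% counting intervals; the solid line marks 1 and dotted lines mark 2-fold. With doxycycline Rsad2 (51.0) and Usp18 (41.5) lie furthest right and Psmb8 (0.411) furthest left, while most members of the Yap-/- pair lie near 1.

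Of the 3 antigen processing genes, 1 was lower and 0 higher with doxycycline by the rule, next to 5.8% and 5.85% of all genes. Psmb8 and Psmb9 encode immunoproteasome subunits that shape peptides for MHC class I, and Tap1 a subunit of the pump that carries those peptides into the endoplasmic reticulum. Psmb8 was at 5.95 RPKM in Yap+/- and 12.2 in Yap-/- organoids, and at 16.4 without and 6.77 with doxycycline. Psmb9 was at 2.09, 3.55, 4.17 and 2.45 RPKM in the same order. Both were thus high in Yap-/- and uninduced YapTg organoids and low in Yap+/- and induced YapTg organoids. With doxycycline Psmb8 was 2.43-fold lower (2.19 to 2.70), the one member lower by the rule, and Psmb9 was 1.70-fold lower. Tap1 was at 2.11, 2.88, 2.64 and 4.39 RPKM and so 1.66-fold higher with doxycycline.

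In the Yap-/- pair these 3 genes had ratios of 2.04 for Psmb8 (1.82 to 2.30), 1.70 for Psmb9 and 1.36 for Tap1. The same genes also separated the 2 reference libraries. Psmb8 was 2.77-fold and Psmb9 1.99-fold lower in Yap+/- than in uninduced YapTg organoids. Both comparisons use the Yap+/- library, whose level is the lowest of the 4 for all 3 genes. Over the 35 members Yap+/- was the lowest library for 19, and for 16 after median-ratio scaling. The same count was not made over all genes. Of all genes at the floor, 7137 of 10883 were lower in Yap+/- than in uninduced YapTg organoids. Likewise 7017 of 10710 were higher in Yap-/- than in Yap+/- organoids. A lean toward lower Yap+/- values was thus present over all genes too. With median-ratio scaling the median log2 ratio of Yap+/- over uninduced YapTg was 0.01 for all genes and -0.13 for the members. These counts of direction do not measure the size of the Psmb8 and Psmb9 differences. By the rule, Yap+/- over uninduced YapTg gave 0 members higher and 1 lower, Psmb8, where 1.11% and 0.726% of 10883 genes were, 1.84% in all. The counting interval excluded 1 upward for 6 members and downward for 14, next to 23.1% and 51.5% of all genes. The median of the 22 members at the floor in that pair was -0.23, against -0.11 for all genes.

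Other genes of the MHC class I pathway, 16 on a list of their own, had a median log2 ratio of -0.30 with doxycycline, with 14 of 16 below 0, 2 lower by the rule and 0 higher. Of all genes 6055 of 11108 were below 0, with 5.8% lower by the rule and 5.85% higher. The highest expressed were B2m, the shared light chain, at 248, 344, 212 and 147 RPKM, and Calr, the chaperone calreticulin, at 212, 213, 241 and 233 RPKM. In the Yap-/- pair the list had a median of 0.15, with 12 of 16 above 0, near the share of all genes given above, and 0 past 2-fold. Class I genes have many near copies, and strains differ in them, so the values of single class I genes are uncertain. Of 6 MHC class II genes, 3 reached the floor and 0 passed the rule with doxycycline in either direction, next to 11.6% of all genes. The 2 highest were Cd74 at 0.361, 0.408, 4.31 and 1.92 RPKM and H2-DMa at 1.57, 2.00, 1.59 and 1.46 RPKM.

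Transcripts of the interferons themselves were at or near 0. Of 19 ligand genes in the table, 14 were listed at 0 in all 4 libraries, among them Ifnb1 and Ifng. Ifnk, a keratinocyte interferon, was at 0.764, 0.991, 0.774 and 0.891 RPKM, level across the groups. Ifna13, Ifnab, Ifnz and Il28b were at 0 in the 3 other libraries and between 0.0182 and 0.159 RPKM in induced organoids. By the lengths used this is 1 or 2 reads each. For Ifnab and Il28b these are minimum numbers. The shortest fitting lengths, 83 and 348 bases, were used there, against GENCODE lengths of 1058 and 582. A count of 0 allows up to 3 reads in a library, so for the 14 genes at 0 a level below that was not detectable.

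The receptors and kinases that carry the signal were expressed in every library. Of 10 such genes, 5 had a log2 ratio above 0 with doxycycline and 5 below. By the rule 1 was higher and 0 lower, next to 5.85% and 5.8% of all genes. That 1 was Il28ra, named after its values were seen, which encodes the receptor chain specific to lambda interferons that act mainly on epithelia. It was at 3.65, 3.01, 3.15 and 11.4 RPKM, a ratio of 3.61 (3.31 to 3.95). The 2 highest of the list encode chains of the interferon gamma receptor. Ifngr1 was at 53.8, 41.8, 40.5 and 73.3 RPKM and Ifngr2 at 34.8, 39.8, 31.5 and 20.6 RPKM, so the chains went opposite ways with doxycycline. In the Yap-/- pair 0 of 10 passed in either direction, where 0.906% of all genes did.

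Of 16 adaptors and other genes of nucleic acid sensing, 13 reached the floor in the doxycycline pair. Of these 1 was higher and 0 lower, near the 5.85% and 5.8% of all genes. In the Yap-/- pair 0 of 11 at the floor passed, where 0.336% and 0.57% of all genes did. The 1 higher with doxycycline was Zbp1, a sensor of Z-form nucleic acid named after its values were seen. It was at 0.0896, 0.10, 0.0946 and 1.32 RPKM, a ratio of 14.0 (8.35 to 25.2). Irf3, the factor that starts interferon transcription, was at 14.7, 16.3, 18.1 and 17.2 RPKM, and Ticam1, an adaptor of endosomal RNA sensing, at 16.6, 16.1, 13.1 and 16.6 RPKM. Of 9 negative regulators and related genes, 1 was higher and 0 lower with doxycycline, next to 5.85% and 5.8% of all genes. The 1 was the nuclease gene Isg20 (1.27 and 5.56 RPKM), also named afterwards. The 2 highest, Irf2 and Ptpn2, were at ratios of 0.786 and 1.01.

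Genes typical of interferon gamma were mostly near 0 in level. Of 17 in the table, 16 were above 0 in some library and 5 reached the floor in the doxycycline pair. Of these 2 were higher and 1 was lower, next to 5.85% and 5.8% of all genes. The 2 were the immunity-related GTPase genes Igtp (0.550 and 4.26 RPKM) and Irgm2 (0.660 and 3.02 RPKM), and the 1 was Irf8 (7.35 and 2.60 RPKM). Igtp and Irgm2 were named after their values were seen. Irgm1, with Irf8 the highest of the list, was at 4.40, 4.66, 4.53 and 6.96 RPKM. In the Yap-/- pair 0 of 3 at the floor passed, where 0.906% of all genes did.

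Markers of other cell types were low beside the 10 epithelial markers, which summed to 4063.8 RPKM or more in every library. Cd52 among them was nevertheless in the range of the members' levels. The 18 immune markers in the table summed to 5.52 RPKM in Yap+/- and 6.38 in Yap-/- organoids, and to 9.68 without and 11.1 with doxycycline. Cd52 made up 5.76 RPKM of the last, a ratio of 2.06 with doxycycline, Ptprc, the pan-leukocyte marker, was between 0.153 and 0.256 RPKM, and Cd4 was at 0 in 2 libraries. Only 4 of the 18 reached the floor in the doxycycline pair, and 0 of these 4 passed the rule in either direction, next to 11.6% of all genes. Without the floor, the counting interval excluded 1 upward for 3 of the 18 and downward for 8. Of the 17378 genes above 0 it did so for 4768 and 6021. Siglech, the defining marker of plasmacytoid dendritic cells, known as strong interferon producers, was between 0.00901 and 0.0628 RPKM and not highest in induced organoids, and its list without members summed to 10.8, 5.36, 8.72 and 5.61 RPKM. Stromal and endothelial markers summed to between 0.563 and 3.77 RPKM, lowest in induced organoids, and red blood cell markers to at most 0.174 RPKM. Cd52, Ptprc, Cd4 and Siglech were picked from the marker lists after their values were seen. Whether immune cells had a part in the levels of the members was not tested.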

How the data were processed

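Organoid RNA was sequenced in 4 libraries, 1 per group, grouped by the sample titles. The submitters' processing notes name CASAVA 1.8, FastQC, TopHat 1.4.1 and mm9. The sources used here do not give the counter, the annotation or the strand setting. No header names the unit of the deposited values, and they were taken as RPKM from the values themselves. All 4 value columns were used (0 left out).

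Library totals were solved from GENCODE M21 gene lengths. A whole length that makes a gene's reads whole in every library (within 0.01) was found for 17377 of 17378 genes above 0. Where the GENCODE length fitted it was used (6984 genes, 15 of the 35 members), otherwise the shortest fitting length, which gives the fewest reads and so the widest intervals. Ratios were taken on RPKM as deposited, and log2 ratios on RPKM plus 1, which understates low genes. Intervals are exact conditional binomial (Clopper-Pearson, 95%) and cover counting error of reads only. They treat reads as independent, which PCR copies are not, so they can be too narrow. Promoter motifs were counted in the RefSeq table of GRCm38.p6, a build other than mm9. The calling rule and intervals were tested on simulated counts with counting error alone and 4-fold changes in genes at 5 RPKM or more. Changes in genes below that level and the spread between cultures were not simulated. A level of 1 RPKM in a 2 kb gene stands for 89.9 to 151 reads, depending on the library.

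Members and lists were chosen with earlier results of these data known. All 35 members are named. Of other genes, Yap1, the 2 highest of each other pathway list and interferon ligands above 0 are named by rule. All others, single cell type markers included, were named after their values were seen. A further gene of the rule is not reported here. Alternatives were other pseudocounts, floors, scalings and thresholds. Python 3.11.15, pandas 2.3.3 and scipy 1.17.1 were used.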

Additional observations from a re-analysis of the deposited data

How the results depend on the processing

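With doxycycline no member changed its direction or its call under median-ratio or upper-quartile scaling, 3 members gained a call with a pseudocount of 0.1 and 7 lost it with 5. For Yap-/- over Yap+/- 2 members, neither called, changed sign under each scaling. Counts of members are given with those of all genes tested after "of". With doxycycline (11108 genes), higher calls were 10 of 350 with a pseudocount of 5, 8 of 191 at 4-fold, 28 of 4058 by a counting interval that excludes 1, and 7 of 448 with the floor set by the 2 libraries outside the pair, which leaves fewer genes (10547). Lower calls were 0 of 323 with a pseudocount of 5, 0 of 121 at 4-fold, 2 of 1447 at 1.5-fold and 4 of 4998 by the counting interval. The median log2 ratio of the members was 1.54 and 0.56 with pseudocounts of 0.1 and 5, 1.21 with a floor of 5 RPKM and 0.74 with the outside floor. For Yap-/- over Yap+/- (10710 genes), higher calls were 1 of 66 (Psmb8) with a pseudocount of 0.1, 3 of 144 at 1.5-fold and 15 of 4141 by the counting interval, and lower calls 1 of 168 at 1.5-fold and 2 of 1688 by the counting interval. For Yap+/- over uninduced YapTg (10883 genes), lower calls were 2 of 213 with a pseudocount of 0.1, 0 of 43 with 5, 0 of 20 at 4-fold, 3 of 512 at 1.5-fold and 14 of 5607 by the counting interval, and higher calls 6 of 2514 by the counting interval. Its median was -0.12 with a pseudocount of 5, -0.067 with no floor and -0.13 with median-ratio scaling, which moved the median of all genes from -0.11 to 0.01. The floors set by the mean of 4 libraries or of the 2 outside the pair, and all alternatives for the reference pair, were chosen after seeing the data. No paired analysis was possible because each group holds 1 library. Members under 1 RPKM without induction rest on as few as 4 reads, so their ratios have wide intervals.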

Other observations

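Genes outside the 35 that carry the same promoter element give a further view of the doxycycline pair. Of 7620 genes with a RefSeq promoter entry and a mean of 1 RPKM or more over the 4 libraries, 5.16% were higher and 6.05% lower with doxycycline. This mean includes the induced library, so a gene high there passes more easily. Of the 257 with 1 or more ISRE matches that are not members, 13 were higher (5.06%) and 15 lower (5.84%), with a median log2 ratio of -0.06 against -0.05 for all 7620. As a class these genes lay near the background. Of the 17 genes with 2 or more matches that are not members, 4 were higher and 0 lower. The 4, named after their values were seen, were Apol9a (0.274 and 10.3 RPKM), Apol9b (0.279 and 9.92 RPKM), the RNA helicase gene Ddx60 (0.578 and 10.5 RPKM) and Oas1g. For Apol9a, Apol9b and Ddx60, each under 1 RPKM without doxycycline, the induced library by itself lifts the mean over this floor. Apol9a and Apol9b are near-identical copies that can share reads, as can Oas1g and the member Oas1a, and 17 genes are few.

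The 2 highest log2 ratios among the 13 were those of Plk2, a kinase gene (2.88 and 64.1 RPKM), and Edn1, the endothelin gene (1.32 and 35.4 RPKM), each with 1 match and also named after values were seen.

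Further genes with interferon in their name, 11 picked after values were seen, were mixed with doxycycline. Ifi27l1 was higher (4.85 and 22.1 RPKM), and Ifi30, a lysosomal thiol reductase gene, was at 117 and 62.2 RPKM.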
